A study of Homo sapiens with 10 samples.

Results

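A set of 8 metallothionein genes (MT1A, MT1E, MT1F, MT1G, MT1M, MT1X, MT2A and MT3), the transcription factor MTF1 and the zinc exporter SLC30A1 were taken by gene symbol, 10 of the 46427 genes in the deposited table, and all 10 were found. They were chosen by name as genes of metal handling that have been linked to cisplatin resistance. The 10 libraries held poly(A) RNA of 2 established human lung cancer cell lines, H460 (8 libraries) and A549 (2 libraries). Parental H460 cells in 2D culture gave 3 libraries. H460 cells that survived 4 µM cisplatin (CR cells) gave 1 library, those that survived 5 nM paclitaxel (PR cells) gave 2, and those that survived 0.5 µM doxorubicin (DR cells) gave 1. The drug was present for 3 days, was followed by 3 days in fresh medium, and the surviving cells were then plated again. Tumor spheroid (TS) cells, which the sample labels call CTC, were passaged 3 times in suspension on a non-adhesive coating in medium with B27, bFGF and EGF and without serum, and gave 1 library of each line, while 2D cells grew with fetal bovine serum. A549 cells in 2D culture gave 1 library. No label says whether replicate libraries came from separate cultures, so p-values measure the spread between these libraries, which may be technical. CR, DR, both TS groups and A549 2D have 1 library each and no replicate check.

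Metallothioneins are small cysteine-rich proteins that bind zinc and copper and can also bind cadmium and platinum. Their genes are induced by metals through MTF1, a zinc-sensing transcription factor that binds metal response elements in their promoters, and several are also induced by glucocorticoids. SLC30A1 (ZnT1), the zinc exporter of the plasma membrane, is another known target of MTF1, and both it and the metallothioneins are known to rise when cells are given zinc.

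The 8 metallothionein genes lie in 1 cluster on chromosome 16, between 56589528 (start of MT3) and 56684196 (end of MT1X). The span is 94.7 kb by RefSeq gene positions on GRCh38.p14. MT2A is at chr16:56608584-56609497, MT1A at chr16:56638666-56640087 and MT1X at chr16:56682470-56684196, while MTF1 (chr1:37809574-37859592) and SLC30A1 (chr1:211571568-211579161) lie apart on chromosome 1. RefSeq promoters on GRCh38.p14 were matched for 4 of the 10 genes (MT2A, MT1X, SLC30A1 and MTF1). The 250 bases before the gene start of the 3 that carry a match are shown because the number of matches to the element differs between them, each 5′ to 3′ on the strand of its gene (chr16:56608334-56608583 plus strand, chr16:56682220-56682469 plus strand and chr1:211579162-211579411 minus strand). Capitals mark matches on either strand to the core of the element, spelled TGCACNC or TGCGCNC.
MT2A: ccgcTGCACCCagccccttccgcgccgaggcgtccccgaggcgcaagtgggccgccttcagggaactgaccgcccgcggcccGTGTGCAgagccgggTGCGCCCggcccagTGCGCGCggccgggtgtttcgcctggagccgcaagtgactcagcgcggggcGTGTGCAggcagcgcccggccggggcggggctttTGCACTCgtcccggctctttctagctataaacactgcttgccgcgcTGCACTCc
MT1X: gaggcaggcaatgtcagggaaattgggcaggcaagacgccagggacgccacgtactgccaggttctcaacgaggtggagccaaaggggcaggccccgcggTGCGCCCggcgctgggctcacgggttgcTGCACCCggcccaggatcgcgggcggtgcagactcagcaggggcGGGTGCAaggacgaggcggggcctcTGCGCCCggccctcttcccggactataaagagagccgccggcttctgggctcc
SLC30A1: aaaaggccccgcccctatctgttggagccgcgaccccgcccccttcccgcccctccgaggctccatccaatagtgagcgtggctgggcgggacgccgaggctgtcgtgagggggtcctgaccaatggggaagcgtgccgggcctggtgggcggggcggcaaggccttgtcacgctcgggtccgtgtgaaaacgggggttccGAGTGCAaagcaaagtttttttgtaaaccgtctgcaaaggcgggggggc
MT2A held 7 cores and MT1X held 4. Only 11 of 35116 promoters of the same length (0.0313%) held at least as many as MT2A, and 130 (0.370%) at least as many as MT1X. SLC30A1 held 1 core, from -49 to -43 on the minus strand relative to the gene, and at least 1 core occurred in 24.8% of all promoters, so a single match is common. The MTF1 promoter held 0 cores in this window. A match is a run of letters and was not tested as a binding site.

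**Figure D1:**
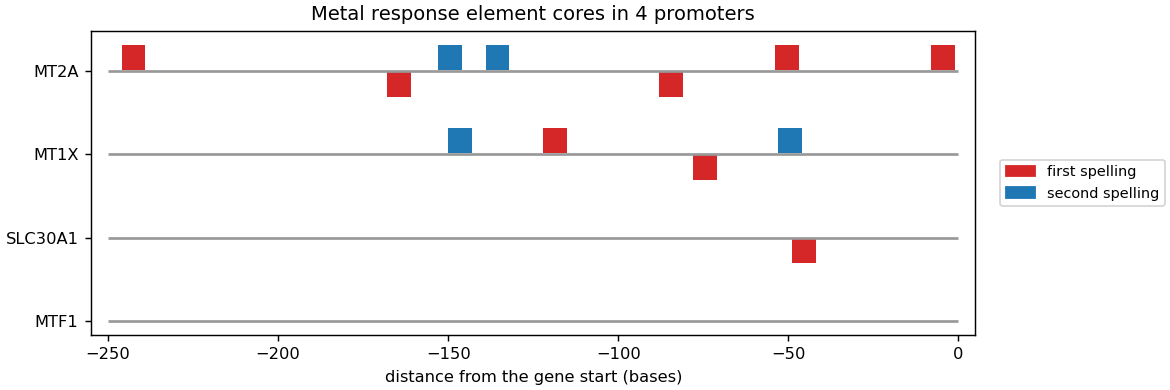
Metal response element cores in the 250 bases before the start of 4 genes, with the distance from the gene start in bases on the x axis, cores on the gene's own strand above each line and on the other strand below it. Red marks TGCACNC (first spelling) and blue TGCGCNC (second spelling). MT2A holds 7 cores, MT1X holds 4, SLC30A1 holds 1 and MTF1 holds 0.

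Depth was between 59499787 and 89541774 counts on genes per library, with a median of 71656787. Of the epithelial markers, 4 of 6 genes in H460 and 5 of 6 in A549 were at a median FPKM (fragments scaled for gene length and library size) of at least 1, while lung alveolar markers were at or near 0 (0 of 4 genes, summed FPKM at most 0.529). Of 3 leucocyte markers CD14 alone was clearly present, at 2.78 to 9.49 FPKM in parental and 11.5 to 17.1 in drug-resistant H460 libraries, and its part in any result was not tested. Endothelial markers summed to at most 0.182 FPKM, and the 4 fibroblast markers to 1.29 to 28.3 in H460 and 1.64 to 1.89 in A549 libraries. Among the latter LUM reached 26.6 FPKM in H460 TS cells, where COL1A1 had 0.0510 and PDGFRB 1.63. COL1A1 moved with the drug groups, at 0.0848 to 0.193 FPKM in parental, 0.783 in CR, 6.51 and 6.26 in PR and 1.41 in DR cells. PDGFRB was at 0.862 to 4.23 in parental and 4.24 to 7.07 in drug-resistant libraries, and DCN was at most 0.319. Their part in the results was not tested.

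MT2A was the most abundant metallothionein in every library. Its level was 86.9, 148.7 and 206.9 FPKM in the parental H460 libraries (147.5 ± 60.0, SD, n = 3), 103.7 in CR, 72.5 and 116.5 in PR, 55.4 in DR and 33.1 in H460 TS cells. The A549 libraries had 117.9 in 2D and 75.8 in TS culture. It ranked between 249 and 1805 among all genes by FPKM. The parental values spread so widely that they overlapped with the CR and PR values.

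MT1A stood at 17.3, 17.0 and 17.0 FPKM in the parental libraries (17.1 ± 0.186, SD, n = 3), and at 2.95 in CR, 5.42 and 2.45 in PR and 3.40 in DR cells (3.56 ± 1.30, SD, n = 4). These came from 498 to 601 counts in parental and 65 to 182 counts in drug-resistant libraries. In TPM, the other deposited scale, the parental values were 40.1, 36.1 and 40.7, relatively further apart than in FPKM. H460 TS cells had 9.93, A549 2D cells 2.62 and A549 TS cells 0.468 FPKM, the last from 16 counts. No drug-resistant value reached the parental range, and the H460 TS value fell between the groups. In bulk RNA, fewer expressing cells and less RNA per cell cannot be told apart.

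MT1X had 10.7, 5.88 and 8.47 FPKM in the parental libraries (8.36 ± 2.43, SD, n = 3), against 2.62 in CR, 2.13 and 2.56 in PR and 1.03 in DR cells (2.08 ± 0.738, SD, n = 4). H460 TS cells had 1.67 FPKM. In A549 MT1X was at 17.2 FPKM in 2D and 19.2 in TS cells, above every H460 library. Of the 75-base stretches in MT1X transcripts of the GENCODE reference, 14.3% also occur in transcripts of another gene, mostly AC026461.1. Part of the MT1X counts could therefore be shared. MT1A and MT2A share 0% by this exact match. Near matches were not counted, so 0% does not show that none of their reads were shared.

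**Figure D2:**
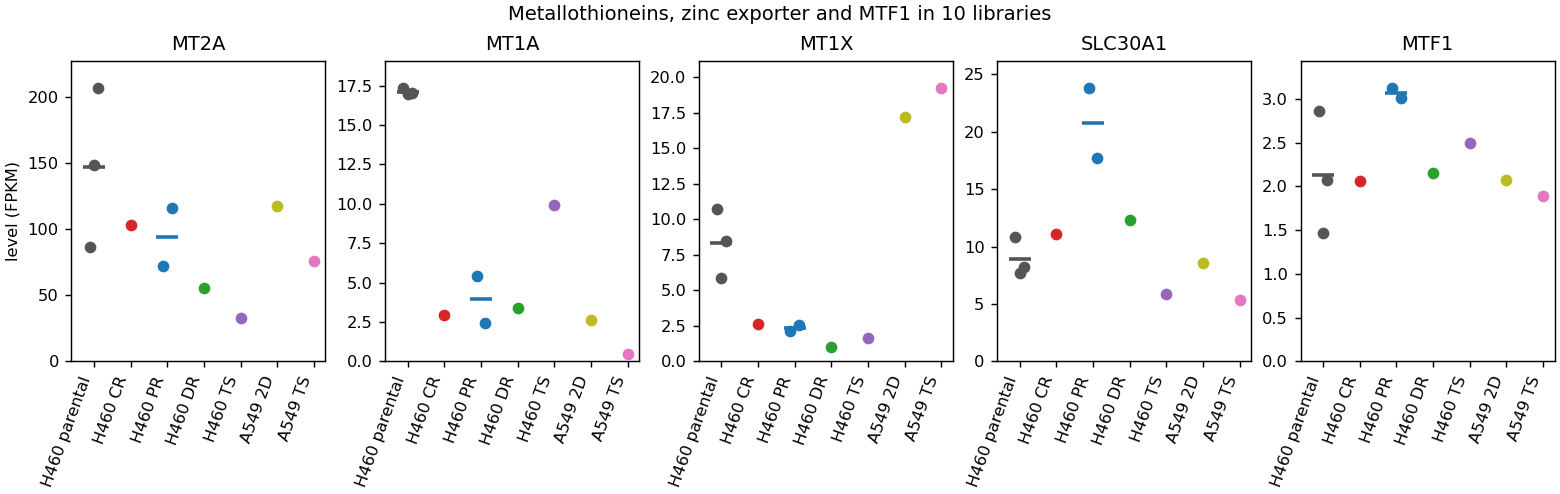
Levels in FPKM of MT2A, MT1A, MT1X, SLC30A1 and MTF1 by group on linear axes from 0, each point 1 library and each line the mean of a group with replicates. The 3 parental points of MT1A lie at 17.0 to 17.3, far above those of drug-resistant cells, and MT1X is highest in the 2 A549 libraries.

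The remaining metallothioneins were near or below detection. MT1E had 3 counts in parental replicate 1 and 0 elsewhere, MT1G had 8 counts in the same library and 0 elsewhere, and MT3, the form best known from brain, had 4 counts in H460 TS cells alone. MT1M had 0 counts in all 10 libraries. MT1F had 35 counts in each A549 library (1.06 and 0.959 FPKM), 6 counts in parental replicate 3 and 0 in the other 7. At 3 counts the detection floor was 0.0335 to 0.0504 CPM (counts scaled to library size) per library.

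SLC30A1 had 10.8, 7.73 and 8.21 FPKM in parental cells (8.92 ± 1.67, SD, n = 3), 11.1 in CR, 23.8 and 17.7 in PR and 12.3 in DR cells (16.2 ± 5.81, SD, n = 4). TS cells had 5.85 (H460) and 5.33 (A549), and A549 2D cells 8.60. On FPKM the drug-resistant libraries all lay above the parental ones, CR by a narrow gap. On the other scales CR lay below parental replicate 1, at 24.4 against 25.1 TPM and 77.4 against 78.3 TMM-scaled CPM, so the groups then overlapped. MTF1 varied less, at 2.86, 1.47 and 2.07 FPKM in parental (2.13 ± 0.701, SD, n = 3), 2.06 in CR, 3.12 and 3.02 in PR, 2.16 in DR and 2.50 in H460 TS cells. A549 cells had 2.07 in 2D and 1.89 in TS culture.

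The sum over the metallothionein genes was 115.2, 171.6 and 232.5 FPKM in parental libraries (173.1 ± 58.7, SD, n = 3) and 59.8 to 121.5 in drug-resistant libraries (92.7 ± 28.0, SD, n = 4), so the groups overlapped. MT2A made up 75.4% to 89.0% of that sum in parental cells and 90.6% to 95.9% in drug-resistant cells, with a narrow gap between the groups. MT1A and MT1X make up nearly all the rest, so this share follows from the levels given above. It is not a separate result. H460 TS cells had the lowest sum, 44.8 FPKM, of which MT1A was 22.2%. In A549 cells MT1X took 12.4% in 2D and 19.9% in TS culture, and MT1A 1.89% and 0.485%. The ratio of MT1A to MT1X therefore ran from 0.0243 in A549 TS cells to 5.93 in H460 TS cells. Divided by SLC30A1, the summed metallothionein level was 10.6, 22.2 and 28.3 in parental libraries. It was 9.85 in CR, 3.37 and 6.84 in PR and 4.86 in DR cells. CR lay only just below parental replicate 1 (9.85 against 10.6), a small gap beside the parental spread. The ratio combines levels given above and is not a separate result.

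**Figure D3:**
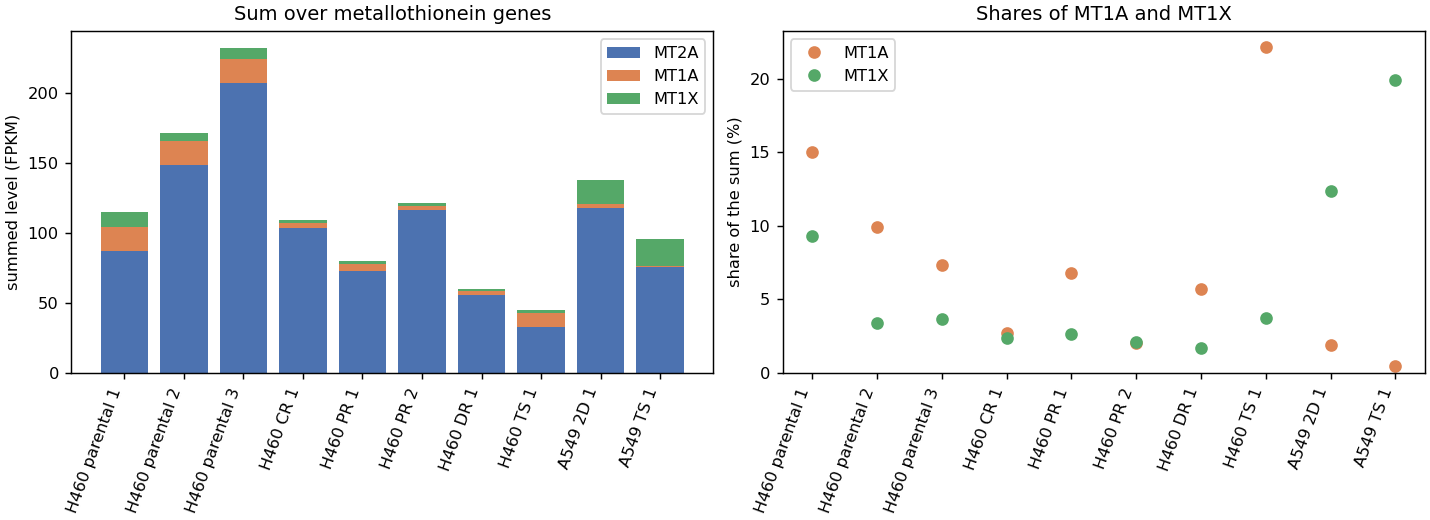
Left, FPKM of MT2A, MT1A and MT1X stacked for each library, and right, the percent of the summed metallothionein level taken by MT1A and MT1X, both axes from 0. MT2A is the largest part of each bar, and MT1X exceeds MT1A in the A549 libraries while MT1A is at 22.2% in H460 TS cells.

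To ask what differed in cells that survived a drug, the 4 drug-resistant libraries were compared with the 3 parental ones on counts with edgeR. The drugs were pooled as a single group, with PR giving 2 of the 4 libraries, so the spread includes differences between drugs. MT1A and MT1X fell, with a log2 fold change of -2.38 (SE 0.295, adjusted p = 0.000418) and -2.13 (SE 0.381, adjusted p = 0.00253), and were lower in every drug-resistant library. On mean FPKM MT1A was 4.81-fold and MT1X 4.01-fold lower. MT2A was at -0.89 (SE 0.324, adjusted p = 0.0549) and did not pass the test. SLC30A1 rose by a log2 fold change of 0.73 (SE 0.253, adjusted p = 0.0481), a call just inside the threshold that held in 10 of 16 alternatives. It was lost on leaving out parental replicate 1 (adjusted p = 0.0624), 2 (0.167) or 3 (0.122) or PR replicate 1 (0.105) or 2 (0.0922). The log2 fold change of SLC30A1 in those fits ran from 0.51 (without PR replicate 1) to 0.87 (without parental replicate 1). MT2A passed without parental replicate 1 (adjusted p = 0.0230) or without CR (0.0413). MTF1 was at 0.14 (SE 0.245, adjusted p = 0.694).

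Of the 10 genes, 5 had enough counts to be tested, and 1 was called higher and 2 lower. Over all tested genes 18.5% were called higher and 15.3% lower, so calls were common in this comparison. With upper-quartile scaling the calls over all genes were 4210 higher and 2032 lower, against 3397 and 2823 in the main fit, and the median over all genes moved from 0.06 to 0.234 on the log2 scale. The fall of MT1A and MT1X and the rise of SLC30A1 kept their directions under each scaling. On FPKM, every drug-resistant library was higher than every parental one for 25.8% of genes and lower for 13.6%.

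Library names came in 2 forms of unstated meaning, so differences were also taken within each. On the log2(FPKM + 1) scale MT1A was at -2.20 among 3 drug-resistant and 1 parental library of one form and at -1.50 among 1 and 2 libraries of the other. MT1X was at -1.21 and -1.75, MT2A at -0.76 and -0.88, and SLC30A1 at 0.73 and 1.25, so the directions were the same in both.

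PR cells, the drug with 2 libraries, gave similar values against the same 3 parental libraries, which the comparisons share. MT1A was at -2.33 (SE 0.422, adjusted p = 0.00529), MT1X at -2.07 (SE 0.427, adjusted p = 0.00808) and SLC30A1 at 0.99 (SE 0.270, adjusted p = 0.0249) by edgeR, all past the threshold. MT2A (-0.90, SE 0.389, adjusted p = 0.112) and MTF1 (0.27, SE 0.313, adjusted p = 0.537) were not. Leaving out PR replicate 2 left 1 PR library and took away all of these calls. The log2 fold changes were then -1.85 for MT1A, -2.17 for MT1X and 1.21 for SLC30A1. Without PR replicate 1, which also left 1 PR library, MT1X (-1.97) and SLC30A1 (0.72) were lost. In edgeR SLC30A1 was also lost without parental replicate 2 (adjusted p = 0.0794), and MT2A passed without parental replicate 1 (0.0289). Over all genes tested, 17.5% were called higher and 10.6% lower. The split was 3391 higher and 2064 lower, and 4252 and 1347 with upper-quartile or 4217 and 1410 with library-total scaling, which moved the median over all genes to 0.296 and 0.257.

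By drug, with differences on the log2(FPKM + 1) scale from the mean of the parental libraries and no test, MT1A and MT1X were more than 2-fold lower in each. In CR cells MT1A was at -2.20 and MT1X at -1.34, and 12.1% of all expressed genes were more than 2-fold apart. In PR cells they were at -1.94 and -1.45, with SLC30A1 at 1.13, against 13.0% of genes. In DR cells they were at -2.04 and -2.17, with MT2A also more than 2-fold lower at -1.31, against 10.8% of genes. SLC30A1 was at 0.30 in CR and 0.43 in DR cells. The MT1X call in CR cells was lost when parental replicate 2 alone served as control, at -0.93. Against parental replicate 1 alone MT2A was at 0.25 in CR and 0.08 in PR cells, so its direction rests on the choice of control.

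**Figure D4:**
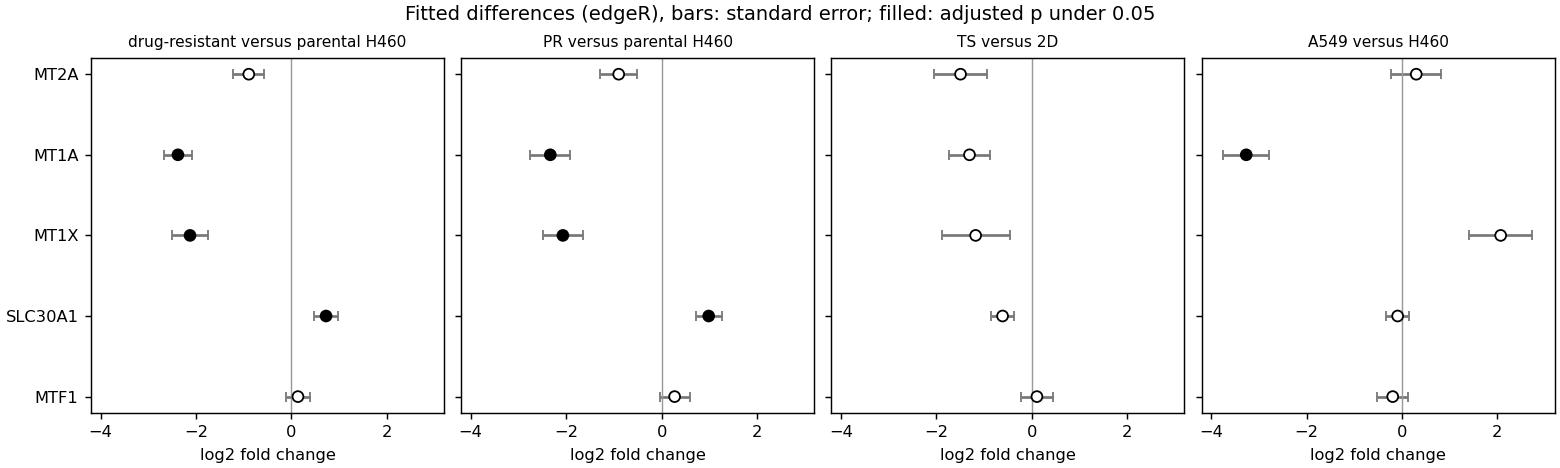
Log2 fold changes of 5 genes in 4 edgeR comparisons, with bars of 1 standard error and filled points at an adjusted p under 0.05. MT1A and MT1X are filled and below 0 in the drug-resistant and PR comparisons, SLC30A1 is filled and above 0 there, and no point is filled for TS versus 2D.

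TS cells were compared with 2D cells over both lines, with the line as a covariate and each line giving 1 TS library. Of the 6 genes tested 0 passed edgeR's test. An unadjusted p under 0.05 in edgeR was reached by 3 of them (MT1A, MT2A and SLC30A1), and by 1363 of all 18372 genes tested. DESeq2 called 537 genes in all against 35 by edgeR, and 0 of the members. By edgeR the calls over all genes were 0.147% higher and 0.0435% lower. MT2A was at -1.49 (adjusted p = 0.555), MT1A at -1.31 (adjusted p = 0.462), MT1X at -1.18 (adjusted p = 0.941), SLC30A1 at -0.61 (adjusted p = 0.610), MT1F at -0.75 (adjusted p = 1.0) and MTF1 at 0.11.

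As single libraries, H460 TS cells differed from parental cells by -2.04 for MT2A and -1.77 for MT1X, more than 2-fold, with MT1A at -0.73, on the log2(FPKM + 1) scale. There 3.30% of genes were that far apart. A549 TS cells differed from A549 2D cells by -1.30 for MT1A, with MT2A at -0.63 and MT1X at 0.15, against 7.22% of genes. MT1X thus lay on opposite sides of its control, the H460 TS library below every parental library and the A549 TS library above its 2D library. In FPKM the gap in A549 was smaller than the spread of the parental H460 libraries. The test of that difference between the lines, an interaction term added after seeing the data, gave 2.52 (SE 0.849, adjusted p = 0.382 in edgeR) and did not pass.

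The lines were compared in the same libraries (parental H460, H460 TS, A549 2D and A549 TS), with culture as a covariate and without the drug-resistant libraries. In that edgeR fit MT1A was lower in A549 than in H460 cells, at -3.26 (SE 0.487, adjusted p = 0.00469). It was called in 14 of 14 alternatives, with -4.29 without A549 2D and -2.71 without A549 TS. The drug-resistant H460 libraries left out had 2.45 to 5.42 FPKM of MT1A, a range that holds the 2.62 of A549 2D cells. MT1F was called higher at 4.78 (SE 1.33, adjusted p = 0.0409), from 35 counts in each A549 library against 0 to 6 in H460, so its fold depends on the prior count, and the call held in 4 of 11 alternatives. It was lost on leaving out parental replicate 1 (adjusted p = 0.0663) or 2 (0.0956), H460 TS (0.0708), A549 2D (0.158) or A549 TS (0.0929). MT1X was at 2.07 (SE 0.663, adjusted p = 0.0632), with 1.00 without H460 TS, 1.01 without A549 TS and 3.53 without A549 2D, where it passed (adjusted p = 0.0136). MT2A was at 0.30 (adjusted p = 0.716), SLC30A1 at -0.09 (adjusted p = 0.818) and MTF1 at -0.19. Over all genes 14.4% were called higher and 9.42% lower in A549.

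Other genes of metal handling were described from lists, by edgeR calls and the median log2 fold change. In the drug-resistant comparison the median of all genes was 0.06, with 18.5% of them called higher and 15.3% lower. Of 6 tested zinc exporters besides SLC30A1, SLC30A4 rose (1.30) and SLC30A3, which loads zinc into vesicles, fell (-2.94), with a median of -0.13. Among 11 tested zinc importers SLC39A13 (1.37) and SLC39A7 (0.61) rose and SLC39A8 (-1.75) and SLC39A4 (-0.78) fell, with a median of -0.19. SLC39A8, a carrier of zinc and cadmium, went from 163.2 ± 48.2 FPKM (SD, n = 3) to 53.1 ± 1.40 (SD, n = 4).

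**Figure D5:**
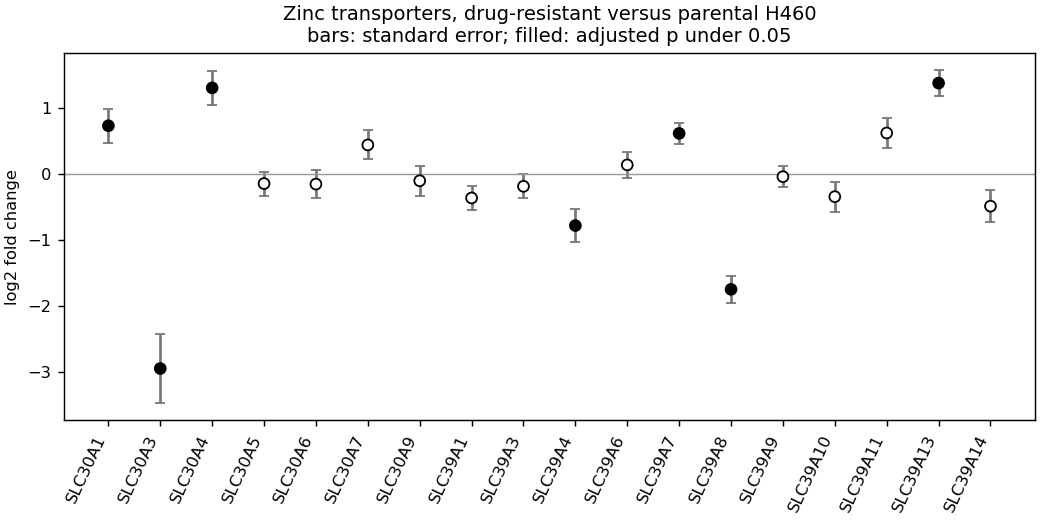
Log2 fold changes of zinc exporters (SLC30A) and importers (SLC39A) in drug-resistant versus parental H460 cells, with bars of 1 standard error and filled points at an adjusted p under 0.05. SLC30A1, SLC30A4, SLC39A7 and SLC39A13 are filled above 0, and SLC30A3, SLC39A4 and SLC39A8 are filled below 0.

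Of 7 genes reported to respond to MTF1, 1 rose (NDRG1, 1.58), with a median of 0.38. The list does not separate genes by the direction of their response, so its median is no measure of MTF1 activity. Genes of copper and platinum transport and handling had 1 of 10 higher, the efflux pump ABCC2 (0.93), with a median of -0.01. Among glutathione genes 1 of 7 rose (GGT1, 1.52) and 2 fell (GCLM, -1.03, and GSR, -0.69), with a median of -0.30. Of 8 glucocorticoid-induced genes, 3 rose (ERRFI1, 1.40, ZFP36, 0.98, and SGK1, 0.90) and FKBP5 fell (-2.65), from 13.8, 12.4 and 9.50 FPKM in parental to 1.17 to 2.77 in drug-resistant libraries. The median of that list was 0.65. Metal and heat stress genes had 0 of 6 called, with HSPA1A at -0.67 and HSPA1B at -0.80 and a median of -0.48. Of 7 neighbours of the metallothionein cluster, NUDT21 (-1.40) and NUP93 (-1.30) fell, and SLC12A3 was called higher from 0 to 2 counts in parental and 7 to 13 in drug-resistant libraries. None of 8 other metallothionein genes and pseudogenes in the table was tested for lack of counts.

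In PR cells alone, 1 of 6 zinc exporters, 1 of 11 importers, 1 of 7 MTF1-responsive, 1 of 10 copper and platinum, 1 of 7 glutathione and 3 of 8 glucocorticoid-induced genes were called higher. Called lower were 1, 2, 0, 1, 1 and 1 of them, and 2 of 7 cluster neighbours. The shares called over all genes were 17.5% higher and 10.6% lower. The medians of the lists ran from -0.66 to 0.60 beside 0.05 for all genes. The higher genes were SLC30A4 (1.14), SLC39A13 (1.15), NDRG1 (1.92), ABCC2 (0.96), GGT1 (1.00), ERRFI1 (1.39), ZFP36 (1.01) and SGK1 (0.83), and SLC12A3 was called from few counts. SLC30A3 (-2.32), SLC39A8 (-1.84), SLC39A4 (-1.10), ATOX1 (-0.87), GSTP1 (-0.77), FKBP5 (-2.79), NUDT21 (-1.36) and NUP93 (-1.36) were lower. HSPA1A (-0.28) and HSPA1B (-0.41) did not pass.

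No gene of the 9 lists was called between TS and 2D cells, the nearest being CSRP1 (-1.65, adjusted p = 0.132 by edgeR). Calls over all genes there were 0.147% higher and 0.0435% lower. The most abundant genes of the lists there were SLC30A5 (0.19), SLC30A9 (-0.01), SLC39A8 (0.34), SLC39A1 (0.01), SELENOW (1.50), ABCC2 (0.20), ATOX1 (-0.10), GSTP1 (0.05) and GSR (0.11). Further ones were DUSP1 (-1.44), SGK1 (-0.50), HSPA1A (0.30), HSPA1B (0.32), NUDT21 (-0.25) and the pseudogene MT1DP (-0.08). In A549 against H460 cells 1 of 6 exporters, 2 of 11 importers, 2 of 7 MTF1-responsive, 2 of 7 glutathione and 2 of 8 glucocorticoid-induced genes were called higher, GCLC counting in 2 lists. Lower were 1 importer, 2 of 10 copper and platinum genes, 1 glucocorticoid-induced gene and 1 of 6 neighbours. The shares called over all genes were 14.4% higher and 9.42% lower. In this comparison NDRG1 (4.84), SLC30A4 (1.40), GCLC (1.48), GGT1 (1.45), SLC39A13 (1.06), SLC39A11 (0.92), ERRFI1 (2.03) and ZFP36 (1.85) were higher, and SLC39A8 (-4.04), SGK1 (-1.53), ATOX1 (-1.02), NUDT21 (-0.91) and SLC31A1 (-0.79) were lower.

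Over the 10 libraries, the genes most like MT2A, MT1X and SLC30A1 in log2(FPKM + 1), of 13439 expressed genes, were ULK4P2 (r = 0.901) for MT2A, FBLN1 (0.926) for MT1X and IGFN1 (0.965) for SLC30A1. Next came CHST14 (0.851) and RILPL2 (0.850) for MT2A, SPTLC2 (0.925) and ANKRD54 (0.922) for MT1X, and MYLIP (0.946) and TRIM32 (0.940) for SLC30A1, while MT1E was too low to be placed. For MT1A, added after its values were seen, they were TMED8 (0.967), SMAD1 (0.963) and IRAK1BP1 (0.962), and MTF1 was not examined in this way. Among members, MT1A and MT1X had r = 0.775 over the 8 H460 libraries and -0.09 over all 10, and MTF1 and SLC30A1 had 0.626 and 0.672. These are descriptions over libraries that share lines and controls.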

How the data were processed

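Poly(A) RNA was sequenced in 10 TruSeq mRNA libraries. The submitters' processing notes name bcl2fastq 1.8.4, Trimmomatic, HISAT2 2.1.0, StringTie 2.1.3b and GRCh38 without their roles, and strand and shared-read handling are not given in the sources used here. The authors deposited whole-number read counts per gene, with no normalization. The deposited FPKM and TPM values were scaled by the authors for gene length and library size. Groups were taken from the labels. Counts were tested with edgeR 4.0.16 (quasi-likelihood, TMM factors, filterByExpr, Benjamini-Hochberg, threshold 0.05) in R 4.3.3. Other differences are of log2(FPKM + 1), with 2-fold as the limit. DESeq2 1.42.0 and limma 3.58.1 were alternatives. The members and gene lists were chosen with earlier results of these data known. All members were named, with at most 4 genes per list: those called, in order of change, or else the 2 of highest FPKM, of which 1 is not reported here. In simulated data edgeR recovered 100% of 4-fold and 91% to 95% of 2-fold changes in the 4 designs, run on 18186 to 18792 genes. False calls were 2.52% to 7.14% (the highest in the PR design). The simulation gave every gene the same fixed spread, not estimated from these libraries. The shares recovered may therefore not hold for the real data, and a gene not called may still differ. The chi-square per gene between replicates was 62.9 to 268.8, beyond sampling noise. The small number of libraries limits the precision. Floors cover counting error only. Figures were drawn with matplotlib 3.10.9.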

Additional observations from a re-analysis of the deposited data

Results flagged for a closer look

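MT1X was flagged because its TS library lay below its control in H460 and slightly above it in A549. The H460 TS library lay below all 3 parental libraries. The A549 TS library (19.2 FPKM) lay above its 2D library (17.2 FPKM) by less than the spread of the parental H460 libraries (5.88 to 10.7 FPKM). A change of MT1X in A549 is therefore not established. The interaction of line and culture, tested after seeing the data, was 2.52 on the log2 scale (SE 0.849, adjusted p = 0.382 in edgeR). It did not pass the correction, with 87 of 19941 genes called, and each line has 1 TS library. In the same fit MT2A was at 1.57 and MT1A at -1.58.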

How the results depend on the processing

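MT1A and MT1X fell in 16 of 16 alternatives of the drug-resistant comparison, with adjusted p from 1.716e-13 to 0.00345 and from 7.441e-07 to 0.0152 in edgeR, DESeq2 or limma. SLC30A1 was called in 10 of 16 (adjusted p 0.0130 to 0.167) and lost without the filter on low counts (0.0753) and when parental replicate 1, 2 or 3 or PR replicate 1 or 2 was left out. MT2A was called in 3 of 16, with DESeq2 (0.0248), without parental replicate 1 (0.0230) and without CR (0.0413). MTF1 ranged from -0.11 to 0.38 when libraries were left out in turn. In the PR comparison, genes called over the table numbered 2742 with an FPKM filter, 3026 with limma and 2773 with limma at a pseudocount of 0.1, and 950 to 6661 on leaving out single libraries, against 5455. Among members, MT1A was lost without PR 2, MT1X without PR 1 or PR 2, and SLC30A1 without PR 1, PR 2 or parental 2 (adjusted p = 0.0794 in edgeR). MT2A was gained without parental 1 (adjusted p = 0.0289 in edgeR). Leaving out PR 1 or PR 2 left 1 PR library, and the log2 fold changes of MT1A, MT1X and SLC30A1 kept their signs. Labels share replicate numbers 1 and 2 between parental and PR cells, and the same-numbered libraries also share a form of library name. The differences of replicates 1 and 2 had a correlation of 0.156 over 12593 genes, and with 2 pairs and no stated meaning of the numbers, pairing is not established. With the replicate as a block 6775 genes were called, against 6661 for the same 4 libraries without it, and the same 3 members.

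In TS versus 2D, 19 genes were called with an FPKM filter and with limma at a pseudocount of 0.1, 537 with DESeq2, and 6 to 322 on leaving out libraries. Left-out libraries moved MT1X from -2.30 to 0.21 (above 0 without H460 TS) and MTF1 from -0.0926 to 0.25. Between lines, members called were 1 without a filter and 1 with an FPKM filter, 1 to 2 on leaving out libraries, and genes called were 2843 with an FPKM filter and 2359 to 3905 on leaving out libraries. MT2A ranged from -0.37 to 1.21, below 0 without either TS library. MT1X was called with DESeq2 (0.00686), limma (0.0193 and 0.0244) and without A549 2D (0.0136). Members more than 2-fold apart numbered 1 in CR cells with parental 2 alone as control and 0 in A549 TS cells on TMM-scaled CPM. The cause was not tested. MT1E, MT1G, MT1M and MT3 had too few counts for any main edgeR comparison, and MT1F for the drug-resistant and PR ones. Why these counts were so low was not tested.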
